A study of Homo sapiens with 26 samples.

Results

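The exon scan library was sorted for myosin heavy chain at day 7 in RH4, an established alveolar rhabdomyosarcoma cell line that carries the PAX3-FOXO1 fusion. Its members are the 1619 guides counted in the MYH high and the MYH low sample of that library, of 12342 guide entries in the 12 libraries of the series, and these are 2 of its 26 samples. Cells of both samples had received the same guide library, were selected with drug, fixed and stained with antibodies to myosin heavy chain (MYH), and were then separated by FACS into MYH high and MYH low cells. Both therefore share the fusion, the library and the harvest, and each arm is 1 pool of cells of 1 line, so no difference between the arms has a replicate check and no test between them is given. The same library was also harvested at day 3, before drug selection, and at day 18 without a sort, and those samples are used below for comparison. Guide counts hold no MYH level, so the purity of either arm was not checked here.

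As background, PAX3-FOXO1 joins the DNA-binding part of PAX3, a transcription factor of early muscle precursors, to the activating part of FOXO1, a forkhead factor, and drives alveolar rhabdomyosarcoma. Such tumour cells express muscle regulators, yet they do not complete muscle differentiation. MYOD1 is a basic helix-loop-helix factor that switches on muscle genes, and MYH is a motor protein of the contractile apparatus made late in that programme. A knockout that lets cells differentiate is read in this assay as a guide that is more frequent among MYH high than among MYH low cells.

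The library names 13 targets. FOXO1 had 357 guides, PAX3 249 and MYOD1 186, and 790 guides were negative controls, named Neg_ctrl. The other 37 guides belonged to 9 targets with fewer than 10 guides each: POLR2A (8), CDK9 (6), CDK1 (5), PCNA, RPA3 and PRL9 (4 each), RPL23A (3), POLR2D (2) and hRosa (1). The MYH high sample held 61334210 reads, with a median of 34974 per guide, and the MYH low sample 54942123, with a median of 31483. MYOD1_61 had 37 reads over both arms, and the guide with the next fewest had 2395. The counting error of a guide's log2 ratio had a median of 0.01 and was at most 0.06, apart from MYOD1_61 at 0.48. It covers the counting of reads only, which are PCR products and not independent molecules. As shares of all reads, FOXO1 guides made up 18.6% of MYH high and 17.1% of MYH low, PAX3 guides 13.9% and 12.5%, MYOD1 guides 6.87% and 6.80%, and Neg_ctrl guides 58.2% and 61.2%. Reads of PAX3 and FOXO1 guides thus took a larger share of the MYH high sample, and control reads a larger share of MYH low.

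The measure used for each guide, called the sort ratio here, is the log2 ratio of its CPM (reads per 1000000 reads of the sample) in MYH high over MYH low, less the median of the Neg_ctrl guides. Before that centring the Neg_ctrl median was -0.09 and the median of all guides -0.02. The Neg_ctrl guides give the background of the sort. Their SD was 0.18, and they ran from -0.52 to 0.83. The central 95% of them reached from -0.29, or 1.23-fold down, to 0.42, or 1.34-fold up, so the background reached further toward MYH high than toward MYH low. A guide is called above or below the control range where it lies beyond these limits. Of all 1619 guides 11.4% lay above the range and 2.16% below it. By construction 20 of the 790 controls, 2.53%, lay on each side.

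Among the controls, the highest was neg74, at 1453 CPM in MYH high and 871 in MYH low, with a sort ratio of 0.83. HGLibA_14349 had 957 and 608 CPM and a ratio of 0.75. HGLibA_14150 followed at 0.63, HGLibA_14634 at 0.59 and HGLibA_14663 at 0.56. The lowest were HGLibA_14633 at -0.52, HGLibA_14408 at -0.40 and chr6_1_21517.800 at -0.39. By the start of the name, 1 control stood alone at 0.32, the 639 HGLibA controls had a median of -0.01 (SD 0.18), the 96 neg controls -0.01 (SD 0.17) and the 54 chr controls 0.04 (SD 0.17). The 3 larger control classes lay within 0.05 of each other in the median, less than their own spread over guides.

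PAX3 guides had the highest median of the targets with 10 or more guides. The lowest PAX3 guide stood at -0.60, the median at 0.28 and the highest at 1.44 (SD over guides 0.32, n = 249 guides). The median corresponds to 1.21-fold, with a 95% order-statistic interval of 0.20 to 0.31 over guides, which does not cover repeats of the experiment. Of the PAX3 guides 205 had a ratio above 0, which is 82.3%. Above the control range lay 75 guides, or 30.1% (exact Clopper-Pearson 95% interval 24.5 to 36.2%), beside 11.4% of the whole library. Below it lay 3 guides, or 1.20% (0.25 to 3.48%), beside 2.16% of the library. Beyond the control range PAX3 guides thus lay nearly always on the MYH high side, while 171 of the 249 stayed within it.

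The distance between PAX3 and the controls widened along the distribution. At the 10th percentile PAX3 stood at -0.08 and the controls at -0.20, a distance of 0.11. At the median the distance was 0.28, at the 75th percentile 0.38 and at the 90th percentile 0.46, where PAX3 stood at 0.70 and the controls at 0.24. PAX3 guides therefore differed from the controls most in their upper part and least in their lower part. Above the highest single control lay 15 PAX3 guides, or 6.02% (exact 95% interval 3.41 to 9.74%), beside 1.54% of the library. More than 2-fold up were 9 PAX3 guides, 3.61% of them, beside 0.803% of the library, in which 13 guides passed that fold.

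The guide with the highest sort ratio in the library was PAX3_148, with 907 CPM in MYH high, 355 in MYH low and 402 at day 3. Its ratio was 1.44, or 2.72-fold. It stood apart from the next PAX3 guides in being well above its day 3 level in MYH high. PAX3_131 had 435 CPM in MYH high, 204 in MYH low and 387 at day 3, with a ratio of 1.18. PAX3_153 had 309, 149 and 336 CPM in the same samples and a ratio of 1.14. In both, the MYH high level lay near that of day 3 and the MYH low level well under it. PAX3_225 had 431, 218 and 414 CPM with a ratio of 1.08, and PAX3_181 had 453, 233 and 516 CPM with a ratio of 1.05. At the other end, PAX3_105 had 25.9 CPM in MYH high, 42.4 in MYH low and a ratio of -0.60, PAX3_179 had -0.45 and PAX3_68 had -0.32. PAX3_105 is among the scarcest guides of the library, with 3109 reads at day 3, where the median guide had 23648.

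FOXO1 guides were shifted the same way, by less. The lowest stood at -0.60, the median at 0.17 and the highest at 1.27 (SD over guides 0.27, n = 357 guides). The 95% order-statistic interval of the median was 0.13 to 0.21, and 275 guides, 77.0%, were above 0. Above the control range lay 74 FOXO1 guides, or 20.7% (exact 95% interval 16.6 to 25.3%), beside 11.4% of the library, and below it 7, or 1.96%, beside 2.16%. At the 10th percentile FOXO1 was 0.07 from the controls, at the median 0.17 and at the 90th percentile 0.32. As for PAX3, the distance was widest at the top. Above the highest control lay 8 FOXO1 guides, or 2.24% (0.97 to 4.37%), beside 1.54% of the library. By that stricter limit the FOXO1 share was close to that of the library, whose 25 such guides include these 8 and 15 of PAX3. By construction no control passes that limit. The median of PAX3 was 0.11 higher than that of FOXO1, and the intervals of both medians overlap narrowly, since that of PAX3 starts at 0.203 and that of FOXO1 ends at 0.206.

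FOXO1_17 was the highest FOXO1 guide, with 622 CPM in MYH high, 274 in MYH low and 578 at day 3, and a sort ratio of 1.27. FOXO1_255 had 781, 385 and 442 CPM and a ratio of 1.11, and FOXO1_238 had 468, 234 and 594 CPM and a ratio of 1.09. These 3 are the FOXO1 guides past 2-fold. FOXO1_148 had 388 CPM in MYH high, 211 in MYH low and 185 at day 3, with a ratio of 0.97, and FOXO1_229 had 543, 298 and 330 CPM with 0.95. FOXO1_17 and FOXO1_238 had a MYH low level far under day 3, whereas FOXO1_255, FOXO1_148 and FOXO1_229 had a MYH high level far over it. The lowest 3 were FOXO1_336 at -0.60, FOXO1_246 at -0.53 and FOXO1_101 at -0.51. FOXO1_336 and PAX3_105 were the 2 guides of the library, 0.124% of it, that were more than 1.5-fold down.

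MYOD1 guides had a median nearer to the controls than PAX3 and FOXO1 guides. The lowest stood at -0.42, the median at 0.09 and the highest at 0.99 (SD over guides 0.22, n = 186 guides), with a 95% order-statistic interval of the median of 0.06 to 0.12. Above 0 were 120 guides, or 64.5%. Of the MYOD1 guides 11 lay above the control range, or 5.91% (exact 95% interval 2.99 to 10.3%), beside 11.4% of the library, and 5 below it, or 2.69% (0.88 to 6.16%), beside 2.16%. At the 10th percentile they were 0.02 from the controls and at the 90th percentile 0.13. The MYOD1 share above the range was thus under that of the library and over the 2.53% of the controls.

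A pair of MYOD1 guides was well above the others. MYOD1_8 had 679 CPM in MYH high, 363 in MYH low and 430 at day 3, with a ratio of 0.99, and was the 1 MYOD1 guide above the highest control. MYOD1_88 had 215, 131 and 247 CPM and a ratio of 0.80. MYOD1_63 followed at 0.57, MYOD1_92 at 0.55 and MYOD1_31 at 0.54. The lowest were MYOD1_80 at -0.42, MYOD1_86 at -0.40 and MYOD1_166 at -0.35, all of them above the lowest control. MYOD1_80 had 123 CPM in MYH high and 176 in MYH low, both under its 244 CPM at day 3.

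The upper end of the whole library was made up mostly, though not wholly, of PAX3 and FOXO1 guides, and its lower end largely of controls. Of the 50 highest guides, with ratios from 0.66 to 1.44, 29 were PAX3, 16 FOXO1, 2 MYOD1, 2 Neg_ctrl and 1 PRL9. PAX3 guides thus held 58% of those places and 15.4% of the library, and FOXO1 guides 32% and 22.1%. Of the 50 lowest, with ratios from -0.60 to -0.26, 30 were Neg_ctrl, 8 FOXO1, 7 MYOD1 and 5 PAX3. Controls held 60% of those places and 48.8% of the library. More than 1.5-fold up were 43 PAX3 guides (17.3%), 25 FOXO1 (7.00%), 2 MYOD1 (1.08%) and 4 Neg_ctrl guides (0.51%), beside 4.63% of the library. More than 2-fold down was 0% of the library.

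Near the limit of the range the split is fine. The PAX3 guide just above it was PAX3_166 at 0.43 and the one just within it PAX3_134 at 0.42, and 24 PAX3 guides lay within 0.05 of the limit. For FOXO1 the neighbours were FOXO1_355 at 0.44 and FOXO1_205 at 0.42, with 29 guides within 0.05, and for MYOD1 MYOD1_71 at 0.42 and MYOD1_40 at 0.41, with 12. The shares above therefore move with the limit, and the values under other limits are given in the closing part.

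Abundance also differed between the targets, since the median guide had 697 CPM among Neg_ctrl, 501 for PAX3, 455 for FOXO1 and 325 for MYOD1 (mean of both arms). The library was split into 3 equal parts by CPM at day 3, a sample outside the sort. The PAX3 share above the control range was 35.3% of 85 guides in the scarcest part (exact 95% interval 25.2 to 46.4%), 33.7% of 83 in the middle (23.7 to 44.9%) and 21.0% of 81 in the most abundant (12.7 to 31.5%). For FOXO1 it was 18.8% of 160 guides (13.0 to 25.7%), 21.6% of 102 (14.0 to 30.8%) and 23.2% of 95 (15.1 to 32.9%). For Neg_ctrl it was 1.94%, 4.36% and 1.19%. In each of the parts PAX3 and FOXO1 guides were above the range several times as often as controls, and the intervals of the parts overlap within each target. MYOD1 had 7.69% of 130 guides, 0% of 43 (interval up to 8.22%) and 7.69% of 13. A split by the mean CPM of both arms, with limits from the controls of each part, gave a steeper fall for PAX3. From the scarcest part to the most abundant its shares were 47.7%, 22.1% and 9.84%, and those of FOXO1 24.3%, 19.5% and 16.9%. That mean is made of the sorted arms, so it is not independent of the sort ratio.

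The small targets have too few guides for a share, and most of them are genes of core cell functions. Guides against PCNA, the sliding clamp of DNA replication, split into a pair near 0.55 and a pair near the controls. PCNA_e3.2 had 646 CPM in MYH high and 463 in MYH low, with a ratio of 0.57, and PCNA_e2.2 had 400 and 292 CPM with 0.54. PCNA_e2.1 had 0.06 and PCNA_e3.1 -0.16, so 2 of 4 PCNA guides were above the control range. RPA3, a subunit of the single-strand DNA binding complex RPA, had 0 of 4 guides beyond the range: RPA3_e1.2 stood at 0.27, RPA3_e2.1 at 0.07, RPA3_e1.3 at -0.13 and RPA3_e1.1 at -0.22. With 4 guides each, the exact 95% interval of the share above the range was 6.76 to 93.2% for PCNA and reached 60.2% for RPA3, so no difference between them was detectable.

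CDK1, the kinase that drives entry into mitosis, had 4 of 5 guides above 0 and 1 above the range. CDK1_e5.1 was the highest, with 389 CPM in MYH high, 305 in MYH low and a ratio of 0.44, followed by CDK1_e4.1 at 0.28 and CDK1_e7.1 at 0.24. CDK1_e6.1 had 0.03 and CDK1_e3.1 -0.03. The last of these also had no loss in culture, at 0.09 for day 18 over day 3 on the log2 scale, whereas the other 4 had -0.53 to -1.19. The order of the 5 CDK1 guides in the sort was the order of their loss in culture. The 4 RPA3 guides had the reverse order. From the highest sort ratio to the lowest, they had 0.48, -0.20, -0.90 and -1.12 for day 18 over day 3. The order seen for CDK1 was thus not common to the small targets.

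The name PRL9 was 1 of 11 gene names not found among current symbols in the RefSeq table, and its spelling is kept. PRL9_e4.1 had 1309 CPM in MYH high, 695 in MYH low and was 2.01-fold up, above the highest control. PRL9_e3.2 had 0.39, PRL9_e4.2 0.15 and PRL9_e3.1 -0.08. Its 4 guides were thus widely spread, with 1 above the control range. RPL23A, a protein of the large ribosomal subunit, had 0 of 3 guides beyond the range, at 0.05, 0.02 and -0.19.

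Guides against the transcription machinery stayed within the control range. CDK9, the kinase of the elongation factor P-TEFb, had all 6 guides below 0, from -0.17 to -0.007, with a median of -0.11 (SD 0.07), and 0 of 6 below the range (exact upper limit 45.9%). POLR2A, the largest subunit of RNA polymerase II, had 8 guides from -0.21 to 0.12, with a median of -0.09 (SD 0.13), 2 of them above 0. POLR2D, another subunit of that polymerase, had guides at 0.19 and 0.04. The sort ratio of the hRosa guide, 500 CPM in MYH high and 536 in MYH low, was -0.01. These 4 targets differed from the controls by less than the spread between control guides.

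The day 3 sample allows each arm to be set against the starting library. It was taken before drug selection, so it is no control of the sort, and the ratios are centred on Neg_ctrl. By construction the sort ratio is the difference of the ratios of both arms, and all 3 share samples. The PAX3 median against day 3 was -0.40 (SD 0.43) in MYH low and -0.15 (SD 0.29) in MYH high. Below the control range lay 63.9% of PAX3 guides in MYH low (exact 95% interval 57.6 to 69.8%) and 28.1% in MYH high (22.6 to 34.1%), beside 26.4% and 11.9% of the library. PAX3 guides were therefore under their day 3 level in both arms and further under it in MYH low.

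FOXO1 and MYOD1 had the same order with smaller gaps. FOXO1 had -0.23 (SD 0.32) in MYH low and -0.11 (SD 0.27) in MYH high, with 48.2% and 18.8% of guides below the range. MYOD1 had -0.19 (SD 0.21) and -0.11 (SD 0.26), with 36.6% and 16.1%. In the mean of both arms, weighted equally since the fraction of cells in each gate is not used here, PAX3 had a median of -0.28 against day 3, FOXO1 one of -0.16 and MYOD1 one of -0.15. By day 18 PAX3 had reached -0.84, MYOD1 -0.78 and FOXO1 -0.42. MYOD1 guides were thus near those of FOXO1 in that mean and near those of PAX3 at day 18.

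The guides above the control range of the sort were also set against day 3. They were chosen by the sort ratio, which is made of the same arms, so these values are a description. The 75 PAX3 guides above it had a median of -0.91 (SD 0.36) in MYH low and -0.23 (SD 0.31) in MYH high. Of these 72 were below the control range of MYH low over day 3 30 below that of MYH high over day 3 and 2 above the latter. The 74 FOXO1 guides had -0.66 (SD 0.33) and -0.04 (SD 0.36), with 63 below in MYH low, 18 below in MYH high and 9 above in MYH high. Many of these PAX3 and FOXO1 guides were thus under the range in both arms. The 20 controls above the range of the sort had -0.08 (SD 0.13) in MYH low and 0.46 (SD 0.16) in MYH high, with 1 below in MYH low and 12 above in MYH high. The 11 MYOD1 guides had -0.37 (SD 0.32) and 0.12 (SD 0.31), with 8 below in MYH low and 3 above in MYH high. Over all controls the SD was 0.13 in MYH low over day 3 and 0.19 in MYH high over day 3, so the MYH high ratios were the more spread. Of the library, 2.47% of guides were above the range in MYH high over day 3.

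The day 18 and day 3 samples are no part of the sort ratio, so loss in culture, the log2 ratio between them, was set against the sort ratio alone. Its median among PAX3 guides stood at -0.28 (SD 0.27) for the 37 guides with a sort ratio of -0.2 to 0. It was -0.47 (SD 0.46) for the 59 from 0 to 0.2, -0.88 (SD 0.54) for the 62 from 0.2 to 0.4, -1.41 (SD 0.63) for the 44 from 0.4 to 0.6 and -1.82 (SD 0.40) for the 24 from 0.6 to 0.8. The 16 above 0.8, a thin bin, had -2.28 (SD 0.73), which is 4.85-fold down, and the 7 below -0.2, also thin, had -0.52 (SD 0.65). From -0.2 upward each step in the sort went with a lower level at day 18.

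FOXO1 guides showed this over a shorter stretch. Their medians at day 18 were -0.21 (SD 0.28) for 67 guides from -0.2 to 0, -0.31 (SD 0.50) for 113 from 0 to 0.2, -0.78 (SD 0.56) for 77 from 0.2 to 0.4 and -1.17 (SD 0.74) for 62 from 0.4 to 0.6. The 15 guides from 0.6 to 0.8 had -1.26 (SD 0.68) and the 8 above 0.8 had -1.04 (SD 0.84), and both bins are thin. MYOD1 guides had -0.77, -0.76, -0.96 and -0.84 over the same 4 steps, from 53, 70, 36 and 12 guides, and the controls lay between -0.01 and 0.03. The 13 MYOD1 guides below -0.2 had -1.13 (SD 0.94) and the 2 above 0.8 had -1.73 (SD 0.24), both thin bins. Over the middle of the sort the MYOD1 medians thus stayed within their spread, with lower values at both ends.

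Seen from the culture, 110 PAX3 guides were more than 2-fold lower at day 18, and 66 of these, 60% (exact 95% interval 50.2 to 69.2%), were above the control range of the sort, against 9 of the other 139. For FOXO1 it was 45 of 91 guides, 49.5% (38.8 to 60.1%), against 29 of the other 266. For MYOD1 it was 5 of 66, 7.58% (2.51 to 16.8%), against 6 of the other 120. In the library 16.9% of guides passed that fold and 35.5% were below the control range at day 18. Loss in culture of a MYOD1 guide was therefore seldom accompanied by a high sort ratio, and that of a PAX3 or FOXO1 guide often.

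Among the 20 highest PAX3 guides of the sort, all 20 were below the control range at day 18, with a median of -2.20 and values from -3.43 to -0.45. The guide at -0.45 was PAX3_148, the highest of the sort. Of the 20 highest FOXO1 guides 17 were below it, with a median of -1.22 and values from -2.58 to 0.05, and of the 20 highest MYOD1 guides 18, with a median of -1.08. Of all guides of each target, 73.1% of PAX3, 56.6% of FOXO1 and 79.6% of MYOD1 were below that range, so the MYOD1 count is to be read against a high share of its own. FOXO1_148 was at -0.16 and within the range, and FOXO1_17 and FOXO1_238 were at -2.36 and -2.58. Of the FOXO1 guides above the range in the sort, 13 of 74 were not below it at day 18, and of the PAX3 guides 2 of 75.

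The test library, sorted in the same way with 97 guides of its own, shares 52 guide names with the scan, matched by name since sequences were not used here. Of these 47 are Neg_ctrl guides in the scan, which gives a second sort of guides of the same name. Their SD was 0.18 in the scan and 0.15 in the test library, and over these 47 guides the values of both sorts correlated with Pearson's r of -0.01 and Spearman's rho of 0.02. Both sorts used the same cell line and stain but have no sample in common. HGLibA_14327, above the range in the scan at 0.47, had -0.15 in the test library, and chr6_1_21517.1689 had 0.54 and 0.10. The spread of the controls was thus alike in size in both sorts, and a control's place in the scan did not carry over to the test library.

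The other 5 shared names belong to targets of the scan. CDK1_e5.1 had 0.44 in the scan and -0.001 in the test library, and PCNA_e2.1 had 0.06 and -0.34. POLR2D_e2.1 had 0.04 and 0.10, CDK9_e2.1 -0.16 and -0.0003, and hRosa -0.01 and -0.03. The test library lists the last 3 as negative controls. CDK1_e5.1 and PCNA_e2.1 had the widest gaps of these 5, but single controls differed as much between the sorts. HGLibA_14327 had 0.47 in the scan and -0.15 in the test library, and chr4_1_117902.12383 had 0.15 and -0.35.

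Other libraries of the series targeted the same genes with other guides. The 16 PAX3 guides of the test library ran from -0.16 to 1.78 with a median of 0.86 (SD 0.65), and 12 of them, 75% (exact 95% interval 47.6 to 92.7%), were above that library's control range, beside 18.6% of all its guides. Its 9 FOXO1 guides ran from -0.27 to 1.04 with a median of -0.04 (SD 0.55), with 3 above the range (33.3%, exact 95% interval 7.49 to 70.1%), and its 2 MYOD1 guides stood at -0.10 and -0.06. PAX3 thus had a higher median there than in the scan, and FOXO1 a lower one. In the 10 pools, centred on all guides, the set PAX3_Fusion_DBD had medians from 2.71 to 4.53 and FOXO1_fusion from 2.25 to 4.23, so the highest PAX3 and FOXO1 guides of the scan, at 1.44 and 1.27, lay below the lowest of these medians. The set PAX3_non-fusion had pool medians from -0.02 to 1.04, and the median of these was 0.12. Centred on all guides as the pools are, PAX3 in the scan had a median of 0.213. Pool CF3, at 1.04, lay far above that and pool TF1, at 0.217, close to it, and the next highest pool, CF2, had 0.18. MYOD1 in the pools had medians from -0.39 in TF1 to 0.52 in CF3, and the median of these was -0.005. The pools other than TF1 and CF3 ran from -0.08 to 0.06. MYOD1 in the scan had 0.018 when centred on all guides, and pools CF3, TF3 (0.059) and KP1 (0.022) lay above that. The scan medians of the small targets are also given here centred on all guides. CDK1 had 0.60 and 0.54 in 2 pools and 0.17 in the scan (SD 0.19, n = 5 guides). CDK9 had -0.13 and -0.08 in 2 pools and -0.17 in the scan. PCNA had medians from -0.11 to 1.34 in 10 pools, with a median of these of 0.13, and 0.23 in the scan. POLR2D had -0.21 in CF3 and 0.04 in the scan, and RPA3 0.07 in CF2 and -0.10 in the scan. RPL9, a name the scan does not list, had 0.07 in CF3. The libraries differ in their guides and were sorted separately, and the part of either in these gaps cannot be told apart.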

How the data were processed

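Integrated guides were read by PCR on RH4 genomic DNA. What the authors deposited per sample is a table of raw counts of reads per guide. The submitters' processing notes name FastQC and MAGeCK, without versions. Trimming and mismatch settings: not given in the sources used here. Members, lists and limits were chosen with earlier results of these data known. Counts were scaled to CPM (times 1000000) and log2 ratios taken with a pseudocount of 1 CPM, then centred on the median of the 790 Neg_ctrl guides. A minimum of 10 counts over both arms removed 0 guides. The control range is the central 95% of Neg_ctrl, with 2.5% beyond each end, and binomial intervals have a 95% level. They treat guides as independent draws, while guides of 1 target share that target and both samples. With 1 sample per arm no count model was fitted between arms. Every target is named; single guides named are the 5 highest and 3 lowest of PAX3, FOXO1, MYOD1 and Neg_ctrl and those of targets under 10 guides, where most POLR2A, CDK9 and RPL23A guides are given by values or range alone. MYOD1_61, guides beside the limit, the 20 highest and the shared names were chosen after the values were seen. The test library was centred on its own controls and the pools on all guides. The calculation was tested on simulated data with 200 changed guides and less spread between guides than the real controls had. That checks the arithmetic only, not how well changes are told from noise in these data. Alternatives were other centrings (edgeR 4.0.16 TMM and DESeq2 1.42.0 size factors among them), pseudocounts, count minimums, summaries and ranges. Software was Python 3.11.15 with scipy 1.17.1, pandas 2.3.3 and numpy 2.4.6, and R 4.3.3. Target names were matched to the RefSeq gene table of GRCh38.p14, with 10 of 11 found.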

Additional observations from a re-analysis of the deposited data

How the results depend on the processing

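Another centring shifts all guides alike, the controls included, so it moves the medians but neither their distance from the controls nor the shares beyond the control range. Against the PAX3, FOXO1 and MYOD1 medians of 0.28, 0.17 and 0.09, no centring gave 0.19, 0.078 and -0.0067, with the control median at -0.09. Centring on all guides, TMM and DESeq2 size factors gave 0.10 for FOXO1 in each case, and for MYOD1 0.0176, 0.0175 and 0.0176. Centring on the chr-named controls, chosen after seeing the data, gave 0.13 and 0.042. The limits of the range moved the shares. With the highest and lowest control as limits, 6.02% of PAX3, 2.24% of FOXO1 and 0.54% of MYOD1 guides lay above, and 0.56% of FOXO1 and 0% of MYOD1 below. With the central 90% of controls, 43.0%, 31.4% and 16.7% lay above. Against day 3, centring on all guides (also chosen after seeing the data) gave -0.10 for PAX3 and -0.056 for FOXO1 in MYH high. In MYH low it gave -0.32, -0.15 and -0.11 for PAX3, FOXO1 and MYOD1, and in the mean of both arms -0.22, -0.095 and -0.088. Of 108 alternative values for these 3 targets 27 lay outside the 95% interval over guides of the reported value. Of the 81 inside it, 24 are shares under another centring, which cannot move. CDK9 had -0.17 to -0.20 under the other scalings, by the same common shift.

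No paired analysis was possible because each arm is 1 sample and the labels number no replicates. Depth in reads limits few guides: MYOD1_61 has 37 reads. These data lack repeats of the sort, and reads do not give the number of cells behind a guide in either arm.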
